A study of Arabidopsis thaliana with 4 samples.

Results

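The transcripts described here encode the structural proteins of Arabidopsis thaliana seed oil bodies. They were chosen by name: 7 oleosins (OLEO1, OLEO2, AT5G51210, AT3G27660, AT3G01570, AT3G18570 and AT1G48990), 2 caleosins (AT4G26740 and AT5G55240) and 1 steroleosin (AT5G50600). Of these 10 genes, 9 were found among the 23932 features of the expression table, and all 9 passed the filter on low values that kept 22646 features. AT5G51210 was not analysed here.

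RNA was sequenced from 4 samples of whole germinating seedlings, 1 for each combination of genotype and treatment, so no difference between 2 samples has a replicate check. The ZFP3ox ABA sample was an overexpressing line of ZFP3, a C2H2-type zinc finger protein. It grew for 84 h on estradiol (5 µM) and the germination-delaying hormone abscisic acid (ABA, 2.5 µM). The wild-type ABA sample was the Columbia accession (Col-0) handled in that way. The ZFP3ox control and wild-type control samples had 5 µM estradiol alone and were harvested at 36 h. Estradiol was thus present in every group, and each comparison of ABA with control also compares 84 h with 36 h: the hormone and the time on the plate cannot be told apart. The promoter and the number of lines behind the overexpression are not given in the labels. ZFP3 itself had 85.4 RPKM (reads counted per exon length and per library size) in ZFP3ox ABA, against 15.7 in wild-type ABA, and 176 in ZFP3ox control, against 8.66 in wild-type control. It was higher in both ZFP3ox samples.

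Plant seeds store triacylglycerol in oil bodies, droplets with a phospholipid monolayer that is studded with proteins. Oleosins are small proteins whose long hydrophobic hairpin is sunk into the oil, and they keep droplets small and separate. Caleosins carry a calcium-binding EF hand and peroxygenase activity, and steroleosins carry a sterol-binding dehydrogenase domain. Their genes are active in the maturing embryo, and the proteins are removed as the oil is used after germination.

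Each sample has a pair of value columns, called column set 1 and column set 2. Set 1 is in RPKM. Set 2 is not per length: its values are whole numbers of reads times a constant for each column, so the reads themselves, which are given below with no correction for depth, could be recovered (in M, mega: 2.64 M reads in features for ZFP3ox ABA, 3.03 M for wild-type ABA, 2.53 M for ZFP3ox control and 3.46 M for wild-type control). The steps of low set 1 values gave about 2.61 M reads for ZFP3ox ABA, 3.16 M for wild-type ABA, 3.01 M for ZFP3ox control and 4.06 M for wild-type control. Whether the sets are separate libraries or runs is stated nowhere in the sources used here, so both columns of a sample count as 1 replicate. Ratios below are on the log2(value + 1) scale, taken within a column set and averaged over both; they understate changes of genes with values near 1.

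All 6 measured oleosins encode the proline knot, the turn at the tip of the hairpin, and it marks them as oleosins by sequence. A search of the conceptual translations for the pattern P, 5 residues, SP, 3 residues, P found it in each of the 6 and in none of the caleosins or the steroleosin. The coding stretches of the knot are shown 5′ to 3′ because they are the shared signature of the oleosins below, with the codons of the knot's prolines and serine in capitals:
OLEO1: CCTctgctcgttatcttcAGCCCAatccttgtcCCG
OLEO2: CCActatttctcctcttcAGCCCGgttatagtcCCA
AT3G27660: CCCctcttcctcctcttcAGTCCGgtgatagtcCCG
AT3G01570: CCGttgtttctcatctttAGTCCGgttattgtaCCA
AT3G18570: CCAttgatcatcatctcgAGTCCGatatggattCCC
AT1G48990: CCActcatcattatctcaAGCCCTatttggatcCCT
In the RefSeq genome TAIR10.1 they lie in coding exons, OLEO1 at chr4:12900723-12900758, plus strand, OLEO2 at chr5:16173928-16173963, minus strand, AT3G27660 at chr3:10244498-10244533, plus strand, AT3G01570 at chr3:222461-222496, minus strand, AT3G18570 at chr3:6396303-6396338, minus strand, AT1G48990 at chr1:18121722-18121757, plus strand. Within these 36 bases OLEO1 and OLEO2 share 23. The most hydrophobic run of 72 residues had a mean Kyte-Doolittle hydropathy of 1.82 to 2.03 in the 6 oleosins, against 0.64 to 0.89 in the caleosins and the steroleosin. The proteins have 166 to 199 residues in oleosins, 245 and 243 in the caleosins AT4G26740 and AT5G55240, and 349 in the steroleosin. Aligned over their length, OLEO2 and AT3G27660 were 65.1% identical, AT3G18570 and AT1G48990 66.3%, and the caleosins 79.8%.

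The stretch before the annotated start is shown next for OLEO1, the oleosin AT3G01570 and both caleosins, which are compared below. Each is the 180 bases upstream of the TAIR10.1 gene start, 5′ to 3′ on the gene's strand, with capitals on matches to the RY repeat (CATGCA or its complement TGCATG), the ABA-response core (ACGTG or CACGT) and the G-box (CACGTG):
OLEO1: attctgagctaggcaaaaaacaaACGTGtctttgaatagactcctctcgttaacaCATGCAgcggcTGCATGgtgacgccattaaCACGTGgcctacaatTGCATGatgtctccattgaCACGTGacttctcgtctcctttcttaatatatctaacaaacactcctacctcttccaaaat
AT3G01570: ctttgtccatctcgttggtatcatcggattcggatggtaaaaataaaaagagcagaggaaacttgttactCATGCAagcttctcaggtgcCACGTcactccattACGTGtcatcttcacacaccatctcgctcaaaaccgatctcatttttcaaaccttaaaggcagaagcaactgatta
AT4G26740: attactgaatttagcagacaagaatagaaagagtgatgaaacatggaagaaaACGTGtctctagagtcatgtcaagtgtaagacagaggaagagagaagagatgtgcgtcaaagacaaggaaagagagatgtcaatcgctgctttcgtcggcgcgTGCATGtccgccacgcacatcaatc
AT5G55240: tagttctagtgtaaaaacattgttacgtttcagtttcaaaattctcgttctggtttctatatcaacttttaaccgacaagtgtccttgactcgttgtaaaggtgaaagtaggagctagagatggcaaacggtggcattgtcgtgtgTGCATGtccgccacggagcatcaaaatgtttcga
The OLEO1 window is chr4:12900250-12900429, plus strand. The AT3G01570 window is chr3:222828-223007, minus strand. The AT4G26740 window is chr4:13475372-13475551, minus strand. The AT5G55240 window is chr5:22405716-22405895, plus strand. OLEO1 holds both kinds of element several times over, and AT3G01570 has both. The caleosins AT4G26740 and AT5G55240 share an identical run of 16 bases around their RY repeat, gTGCATGtccgccacg, which ends 10 bases before the start in AT4G26740 and 19 bases before it in AT5G55240. In the window from 250 bases before to 50 after the start, on both strands, 8 of the 8 genes searched held an RY repeat, against 9.7% of 27443 annotated promoters. The ABA-response core was found in 6 of 8, against 26.7% of promoters, and the G-box, which contains that core on both strands, in 3 of 8, against 7.7%. The W-box core TTGAC was found in 5 of 8 and in 50.5% of promoters. A match describes letters only and no binding was measured.

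OLEO1 (AT4G25140), the major small oleosin of Arabidopsis seeds, had more transcript in both ABA samples than in both controls. It stood at 77.3 RPKM in ZFP3ox ABA, against 295 in wild-type ABA, and 10.6 in ZFP3ox control, against 13.2 in wild-type control. In column set 2 it had 110 reads in ZFP3ox ABA, against 277 in wild-type ABA, and 11 in ZFP3ox control, against 17 in wild-type control. Both sets give the same order of the ABA samples, with ZFP3ox below wild type.

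OLEO2 (AT5G40420), a longer seed oleosin, was the highest of the 9 genes per length in both ABA samples in both sets. In set 1 it had 296 RPKM in ZFP3ox ABA, against 742 in wild-type ABA, and 50.8 in ZFP3ox control, against 21.0 in wild-type control. In set 2 it had 3079 reads in ZFP3ox ABA (95% Poisson interval 2971 to 3190), against 1069 in wild-type ABA (1006 to 1135), and 38 in ZFP3ox control, against 43 in wild-type control. The ABA samples were far above the controls in each set, but their order was opposite: ZFP3ox ABA was 0.40 times wild-type ABA in set 1 and 3.15 times in set 2. These intervals cover counting error only, and what separates the sets was not tested.

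AT3G01570, also an oleosin, came next to OLEO2 per length in both ABA samples in set 1. It had 203 RPKM in ZFP3ox ABA, against 381 in wild-type ABA, and 23.3 in ZFP3ox control, against 12.0 in wild-type control. Its reads in set 2 were 89 in ZFP3ox ABA, against 667 in wild-type ABA, and 29 in ZFP3ox control, against 27 in wild-type control. ZFP3ox was below wild type with ABA in both sets, and above it in both sets without ABA once reads are scaled (3.05 scaled reads in ZFP3ox control and 1.92 in wild-type control).

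The other 3 measured oleosins had lower levels than OLEO1 per length in both ABA samples in both sets. AT3G27660 had 16.1 RPKM in ZFP3ox ABA, against 25.8 in wild-type ABA, and 11.04 in ZFP3ox control, against 8.38 in wild-type control. Set 2 held 25 reads in ZFP3ox ABA, against 78 in wild-type ABA, and 16 in ZFP3ox control, against 41 in wild-type control. AT3G18570 had 55.3 RPKM in ZFP3ox ABA, against 20.5 in wild-type ABA, and 19.6 in ZFP3ox control, against 8.83 in wild-type control. Set 2 held only 11 reads in ZFP3ox ABA, against 30 in wild-type ABA, and 7 in ZFP3ox control, against 20 in wild-type control. Thus ZFP3ox ABA was the highest sample for AT3G18570 in set 1 and not in set 2. AT1G48990 had 11.03 RPKM in ZFP3ox ABA, against 9.10 in wild-type ABA, and 7.37 in ZFP3ox control, against 3.38 in wild-type control. Set 2 held 20 of its reads in ZFP3ox ABA, against 30 in wild-type ABA, and 10 in ZFP3ox control, against 17 in wild-type control. For AT1G48990 the 95% Poisson intervals of the ABA samples overlapped, with 12.2 to 30.9 reads in ZFP3ox and 20.2 to 42.8 in wild type. Those of AT3G27660 (16.2 to 36.9 in ZFP3ox and 61.7 to 97.3 in wild type) did not, before any correction for depth. Those of AT3G18570 (5.5 to 19.7 in ZFP3ox and 20.2 to 42.8 in wild type) nearly met in uncorrected reads. ZFP3ox ABA had fewer reads in features than wild-type ABA, so scaling for depth closes this narrow gap. The intervals of AT3G18570 therefore do not decide whether the ABA samples differed, as overlap does not show that they were equal. Its scaled reads were 1.11 in ZFP3ox ABA and 2.76 in wild-type ABA, the opposite order to set 1.

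The caleosins stood far apart in set 2, where AT4G26740 was the higher in every sample, and had the same RPKM in the ZFP3ox control in set 1. AT4G26740, the seed caleosin listed as ATS1, had 15.7 RPKM in ZFP3ox ABA, against 19.4 in wild-type ABA, and 6.57 in ZFP3ox control, against 6.20 in wild-type control. Set 2 held 126 reads in ZFP3ox ABA, against 276 in wild-type ABA, and 146 in ZFP3ox control, against 244 in wild-type control. In set 2 it was the highest of the 9 genes per kilobase in both controls. AT5G55240, listed as ATPXG2 (a peroxygenase), had 14.6 RPKM in ZFP3ox ABA, against 33.2 in wild-type ABA, and 6.57 in ZFP3ox control, against 1.27 in wild-type control. Set 2 held 13 reads in ZFP3ox ABA, against 49 in wild-type ABA, and 13 in ZFP3ox control, against 18 in wild-type control. Its wild-type ABA sample was the highest in both sets.

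The steroleosin AT5G50600, listed as HSD1, was as listed the lowest per length in both ABA samples, a rank that depends on how reads shared with a copy were assigned. It had 7.29 RPKM in ZFP3ox ABA, against 7.45 in wild-type ABA, and 3.33 in ZFP3ox control, against 2.82 in wild-type control. Set 2 held 16 reads in ZFP3ox ABA, against 22 in wild-type ABA, and 13 in ZFP3ox control, against 30 in wild-type control. Its coding sequence is identical over 1050 of 1050 bases to that of AT5G50700, and reads that matched up to 10 places were used by the authors. Reads from the coding sequence therefore cannot tell the copies apart. The exons outside it were not compared (exon lengths of 1549 bases for AT5G50600 and 1569 for AT5G50700). Summed over both copies the values were 27.1 RPKM in ZFP3ox ABA, against 14.5 in wild-type ABA, and 7.10 in ZFP3ox control, against 8.54 in wild-type control. The summed reads were 52 in ZFP3ox ABA, against 83 in wild-type ABA, and 20 in ZFP3ox control, against 64 in wild-type control. In ZFP3ox ABA the summed RPKM was above that of AT4G26740, AT3G27660, AT5G55240 and AT1G48990.

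**Figure D1:**
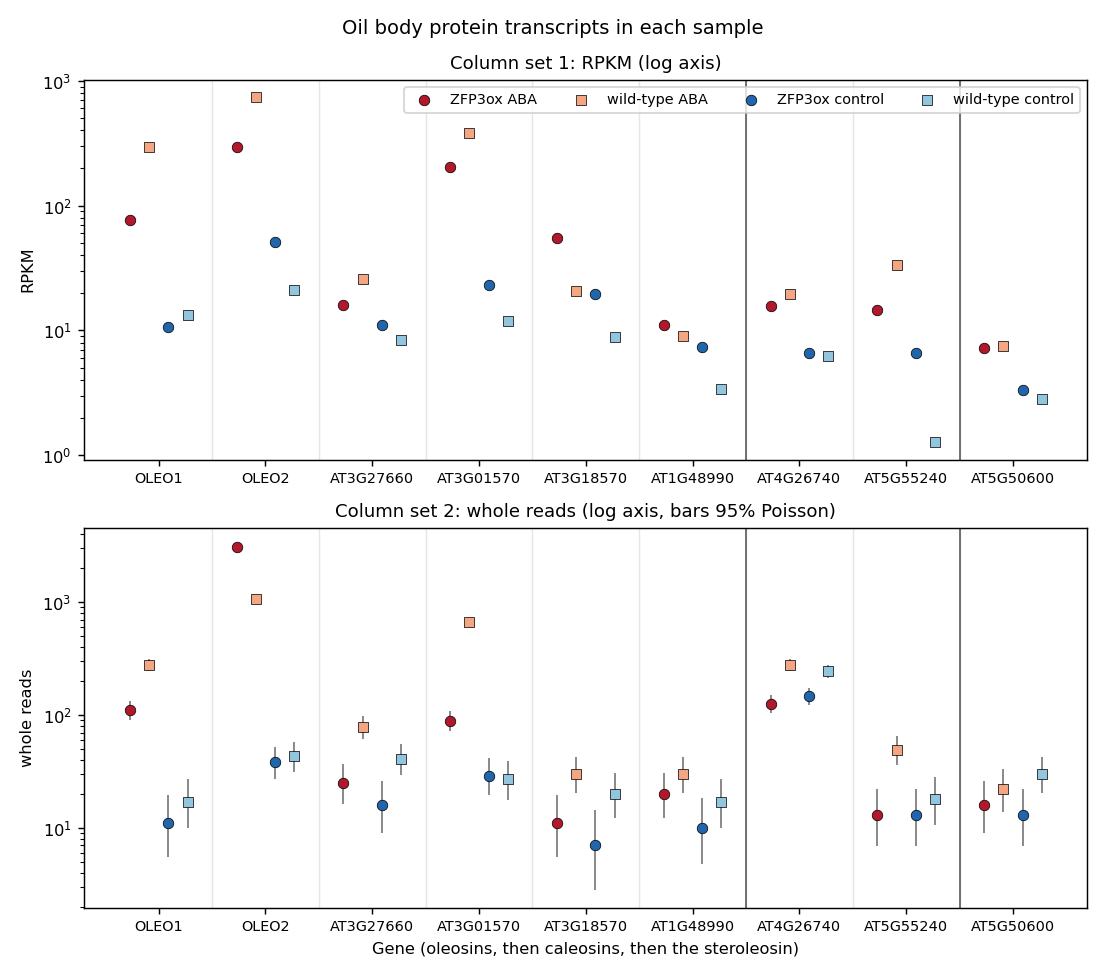
Transcript level of the 9 measured genes in each of the 4 samples, as RPKM in column set 1 (upper, log axis) and whole reads in column set 2, not corrected for depth or length (lower, log axis, bars are 95% Poisson intervals). OLEO1, OLEO2 and AT3G01570 are the highest in both ABA samples in set 1, AT4G26740 reaches 126 and 276 reads in the ZFP3ox and wild-type ABA samples in set 2, and the order of the ABA samples for OLEO2 is opposite in the sets.

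Summed over the 9 genes, set 1 gave 696 RPKM in ZFP3ox ABA, against 1534 in wild-type ABA, and 139 in ZFP3ox control, against 77.1 in wild-type control. In set 2 the same genes took 0.132% of the reads in features in ZFP3ox ABA, against 0.0826% in wild-type ABA, and 0.0112% in ZFP3ox control, against 0.0132% in wild-type control. Without OLEO2 the set 2 shares were 0.0155% in ZFP3ox ABA, against 0.0472% in wild-type ABA, and 0.00969% in ZFP3ox control, against 0.012% in wild-type control. OLEO2 alone therefore sets whether the summed share of ZFP3ox ABA is above or below that of wild-type ABA in set 2. In whole seedlings, fewer embryo-like cells and less RNA per cell cannot be told apart.

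With ABA, 3 oleosins rose. The test was limma on all 4 samples, in which the ABA effect is averaged over the genotypes and set against the departure from additivity. It has 1 residual degree of freedom and a prior of 6.7 borrowed across genes, with Benjamini-Hochberg adjustment over 22646 genes. OLEO2 rose by 4.54 on the log2 scale (SE 0.26, adjusted p 0.0018), OLEO1 by 3.30 (SE 0.34, adjusted p 0.0166) and AT3G01570 by 3.42 (SE 0.50, adjusted p 0.0386). Each of the 3 was higher in 2 of 2 genotypes in both column sets. Against these 3 of 9, 0.287% of all genes tested rose. None of the other 6 passed limma's threshold, at adjusted p 0.138 to 0.258; AT5G55240 had an effect of 1.55 with an adjusted p of 0.157. Over the alternatives, limma's or edgeR's adjusted p ran from 0.0062 to 0.239 for AT3G01570, from 0.00183 to 0.0783 for OLEO1 and from 9.28e-05 to 0.0502 for OLEO2, so each call ended under at least 1 of them.

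In ZFP3ox, 3 of 9 were past 2-fold higher with ABA and 0 lower, where 4.55% of all genes were past 2-fold higher and 2.23% lower. The median was 0.54, against 0.21 for all genes. The 3 were OLEO2 at 4.24 (2.52 in set 1 and 5.96 in set 2), OLEO1 at 2.62 and AT3G01570 at 2.19. The other 6 lay between 0.44 and 0.86. With both steroleosin copies summed, an alternative chosen after seeing the data, the steroleosin's ratio was 1.40 instead of 0.54 (1.79 in set 1 and 1.0 in set 2).

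In wild type, 6 of 9 genes were past 2-fold higher with ABA and 0 past 2-fold lower, where 4.65% of all genes were past 2-fold higher and 2.86% past 2-fold lower. Their median log2 ratio was 1.29, against 0.15 for all genes. OLEO2 had a ratio of 4.85, AT3G01570 of 4.65, OLEO1 of 3.98 and AT5G55240 of 2.59. AT3G27660 had 1.29 and AT4G26740 just passed with 1.02, of which set 2 gave 0.53. Outside the rule were AT1G48990 at 0.99, AT3G18570 at 0.88 and AT5G50600 at 0.55, or 0.67 with both copies summed. The ratio of AT5G55240 was 3.91 in set 1 and 1.27 in set 2. The ABA comparisons in the genotypes share no sample, yet with 1 sample in each group the difference between them has no test.

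**Figure D2:**
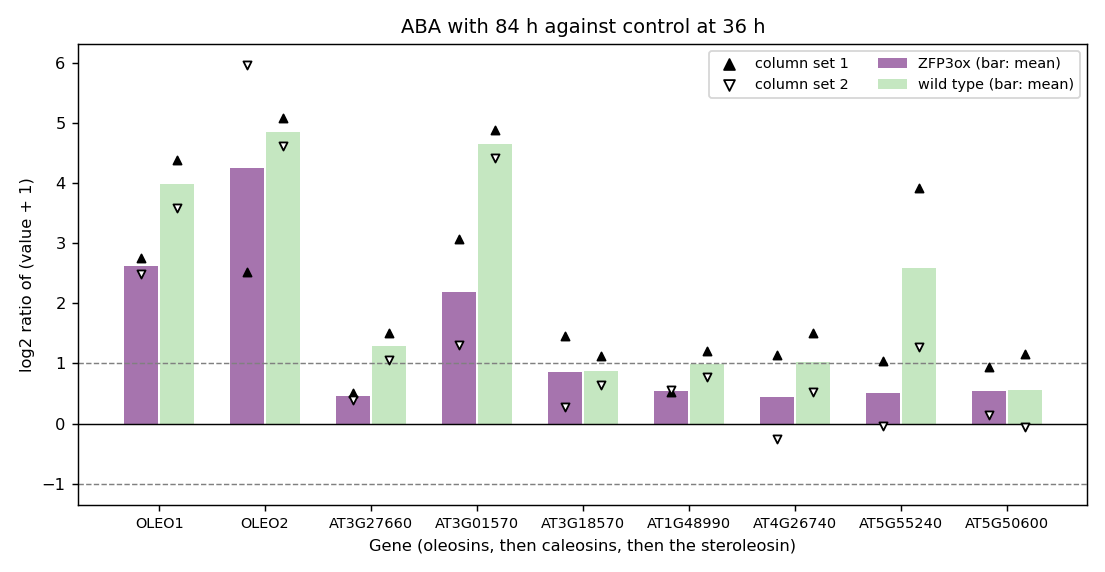
Log2 ratio of (value + 1) of ABA at 84 h over control at 36 h for each gene, in ZFP3ox and in wild type; bars are the mean of both column sets, triangles the single sets and dashed lines the 2-fold rule. The mean is lower in ZFP3ox than in wild type for every gene shown, by 2.46 for AT3G01570 and by 0.01 for AT5G50600 as listed. For OLEO2, AT3G18570 and AT5G50600 the sets give opposite directions of this difference. With both steroleosin copies summed the difference is 0.72 in the other direction.

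The difference of the ABA ratios between genotypes, ZFP3ox minus wild type, was past 4-fold lower for 2 of 9 genes and past 4-fold higher for 0, where 0.185% of all genes were past 4-fold lower and 0.336% past 4-fold higher. The 2 were AT3G01570 at -2.46 (-1.81 in set 1 and -3.12 in set 2) and AT5G55240 at -2.09 (-2.87 in set 1 and -1.31 in set 2). Neither was past 4-fold in both sets. The set 1 value of AT5G55240 rests on 1.27 RPKM in wild-type control, with 0.3% of features below it. With both copies summed, the steroleosin had 0.72, against -0.01 for AT5G50600 alone. OLEO1 had -1.37, and OLEO2 had -0.61 from values of -2.56 and 1.34 in sets 1 and 2.

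With ABA, ZFP3ox was past 2-fold below wild type for 3 of 9 genes and past 2-fold above it for 0, where 2.03% of all genes were past 2-fold lower and 2.7% past 2-fold higher. The 3 were AT3G01570 at -1.78 (-0.90 in set 1 and -2.65 in set 2), OLEO1 at -1.53 (-1.92 in set 1 and -1.13 in set 2) and AT5G55240 at -1.19 (-1.13 in set 1 and -1.25 in set 2). AT3G27660 had -0.93 and AT4G26740 -0.62, lower in both sets. OLEO2 had 0.16 and AT3G18570 0.28, each with opposite signs in the sets. The median of the 9 was -0.62, against 0.05 for all genes.

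Without ABA, 0 of 9 genes were past 2-fold higher or lower in ZFP3ox, where 0.954% of all genes were past 2-fold higher and 1.58% lower. The ratios ran from -0.16 for OLEO1 to 0.90 for AT5G55240, with a median of 0.30 against 0.01 for all genes. The set 1 median of the 9 was 0.90 and that of set 2 was -0.11. OLEO2 had 0.77, from 1.23 in set 1 and 0.30 in set 2, and AT3G01570 0.69.

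**Figure D3:**
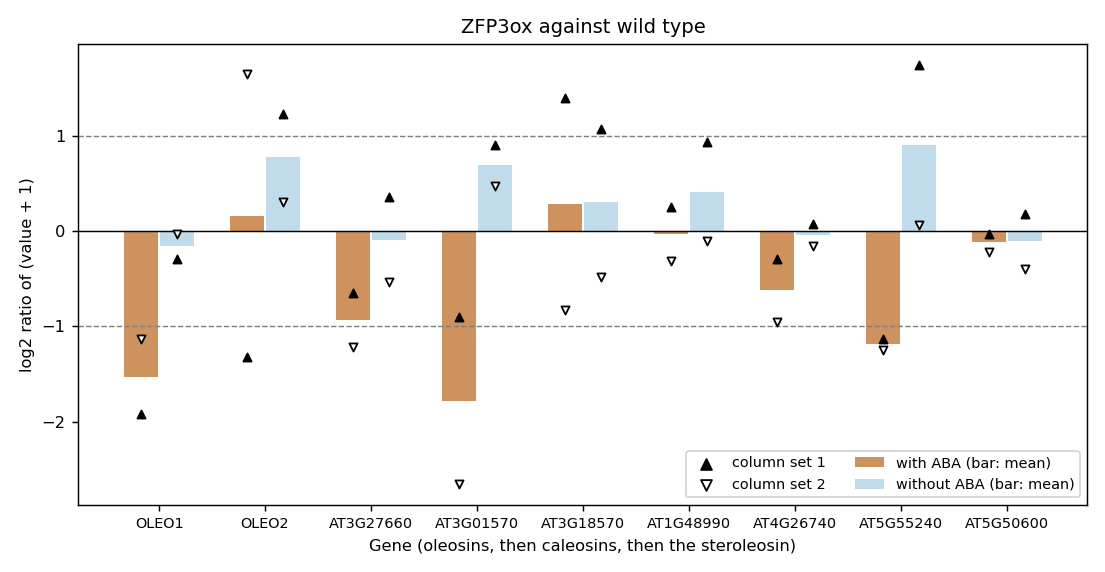
Log2 ratio of (value + 1) of ZFP3ox over wild type for each gene, with ABA and without ABA; bars are the mean of both column sets, triangles the single sets and dashed lines the 2-fold rule. AT3G01570 and AT5G55240 are below 0 with ABA and above 0 without it in both sets, and the sets of OLEO2 with ABA lie on opposite sides of 0.

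The genotype effect averaged over treatments passed limma's threshold for 0 of 9 genes, where 0.00883% of all genes passed in either direction. OLEO1 alone of the 9 had an unadjusted p under 0.05, 0.0383, with an effect of -0.84; the adjusted p of the 9 genes ran from 0.685 to 0.95 in limma. At an unadjusted p under 0.05, 1650 of the 22646 genes passed. The quasi-likelihood test of edgeR on the reads of set 2 also gave 0 of 9, and 1 gene over the whole table.

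In the tables of selected genes deposited by the authors, 7 of the 9 stood among the 803 genes higher with ABA, where the expression table has 23932 features. The authors' deposited table gave OLEO2 an ABA fold of 41.7 in ZFP3ox and 33.8 in wild type. The plain ratios of the OLEO2 values in ZFP3ox, with no pseudocount, were 5.83 in set 1 and 77.6 in set 2. In wild type they were 35.3 and 32.3, so in set 1 the OLEO2 ratio was lower in ZFP3ox than in wild type. In the authors' deposited table AT3G01570 had 5.83 in ZFP3ox and 31.9 in wild type, OLEO1 8.42 in ZFP3ox and 21.8 in wild type, and AT5G55240 1.59 in ZFP3ox and 14.8 in wild type. For AT5G55240 in wild type the plain ratios were 26.1 in set 1 and 3.52 in set 2. AT4G26740 and AT5G50600 were not in the authors' deposited table of genes higher with ABA. The authors' deposited tables of genes lower with ABA and of genes higher or lower in ZFP3ox listed 0 of the 9. They hold 543, 225 and 167 genes, so few of the 23932 features that 0 of 9 says little.

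The related lists were counted in the same way. Among 19 other oil body and lipid droplet genes, the oleosin AT2G25890 alone rose with ABA in limma, by 2.35 (SE 0.28, adjusted p 0.0222). It had 48.7 RPKM in ZFP3ox ABA, against 133 in wild-type ABA, and 8.02 in ZFP3ox control, against 7.19 in wild-type control. The list's median ABA effect was 0.12, against 0.20 for all genes. With ABA, LDAP2, a lipid droplet-associated protein, was the only one of the 19 past 2-fold between genotypes, at -1.32.

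None of 9 genes of oil synthesis and none of 11 of oil breakdown passed limma for ABA or genotype. Of all 22646 genes, 65 rose and 82 fell with ABA and 0.00883% passed for genotype, so these counts say little. The median ABA effects of the synthesis and breakdown lists were 0.40 and 0.32. Of the breakdown list, 2 were past 2-fold lower in ZFP3ox when ABA was present. These were MLS (malate synthase) at -1.72 and ICL (isocitrate lyase) at -1.29, both of the glyoxylate cycle. MLS had 312 RPKM in ZFP3ox ABA, against 923 in wild-type ABA, and 745 in ZFP3ox control, against 1265 in wild-type control. Its scaled reads in set 2 were 42.7 in ZFP3ox ABA, against 159 in wild-type ABA, and 19.0 in ZFP3ox control, against 38.4 in wild-type control. ZFP3ox was below wild type in both sets, but the ABA samples of MLS were below their controls in set 1 and above them in set 2, and so were those of ICL, KAT2 and PCK1. FAD2, a fatty acid desaturase, had the largest ABA ratio of the synthesis list in wild type, 1.20, and did not pass limma.

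Among 16 seed maturation regulators, ABI5, a basic leucine zipper factor of the ABA pathway that binds the ABA-response core, rose with ABA in limma by 1.70 (SE 0.23, adjusted p 0.0333). It had 26.2 RPKM in ZFP3ox ABA, against 59.3 in wild-type ABA, and 9.09 in ZFP3ox control, against 7.95 in wild-type control. Set 2 held 261 reads in ZFP3ox ABA, against 145 in wild-type ABA, and 63 in ZFP3ox control, against 105 in wild-type control. As with OLEO2, the order of its ABA samples was opposite in the sets. ABI4, an AP2 factor, had a ratio of 1.30 in wild type and did not pass limma.

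Markers of other tissues and stages moved beside these genes. The 4 embryo storage genes (CRA1, CRC, PAP85 and SESA1) summed to 230.2 RPKM in ZFP3ox ABA, against 981 in wild-type ABA, and 55.3 in ZFP3ox control, against 80.3 in wild-type control, and with ABA 3 of 4 were past 2-fold lower in ZFP3ox. PAP85, a vicilin-like storage protein, had the largest ratio between genotypes with ABA, -2.95 (-1.97 in set 1 and -3.94 in set 2). CRA1, a cruciferin, was the 1 of 4 that rose with ABA in limma, by 3.07 (SE 0.35, adjusted p 0.0206). SESA1 departed from the other 3, with 11.3 RPKM in ZFP3ox ABA, against 7.57 in wild-type ABA, and 6.63 in ZFP3ox control, against 9.03 in wild-type control. Its scaled reads in set 2 were 4.94 in ZFP3ox ABA and 8.56 in wild-type ABA, so the sets gave opposite orders. The 4 green seedling genes (CAB1, RBCS1A, LHCB2.1 and PSBO1) summed to 1398 RPKM in ZFP3ox ABA, against 187 in wild-type ABA, and 2741 in ZFP3ox control, against 1938 in wild-type control. With ABA, 3 of 4 were past 2-fold higher in ZFP3ox. CAB1 had the largest part, with 837 RPKM in ZFP3ox ABA and 45.55 in wild-type ABA. RBCS1A had 173 RPKM in ZFP3ox ABA and 115 in wild-type ABA, but 75.1 and 86.9 scaled reads in set 2. The 4 endosperm and seed coat genes (EXPA2, MAN7, MAN5 and TT10) summed to 70.4 RPKM in ZFP3ox ABA, against 99.2 in wild-type ABA, and 39.9 in ZFP3ox control, against 43.0 in wild-type control. None was listed at 0, but set 2 lists no feature below 1 read in any sample, so this says nothing about these genes. With ABA, MAN7 and EXPA2 were lower in ZFP3ox (-0.99 and -0.65), while MAN5 and TT10 were slightly higher (0.28 and 0.03). Of the 4 measured tapetum and pollen genes, 0 were past 2-fold in any of the comparisons. The part of tissue makeup or stage in the oil body transcripts was not tested.

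**Figure D4:**
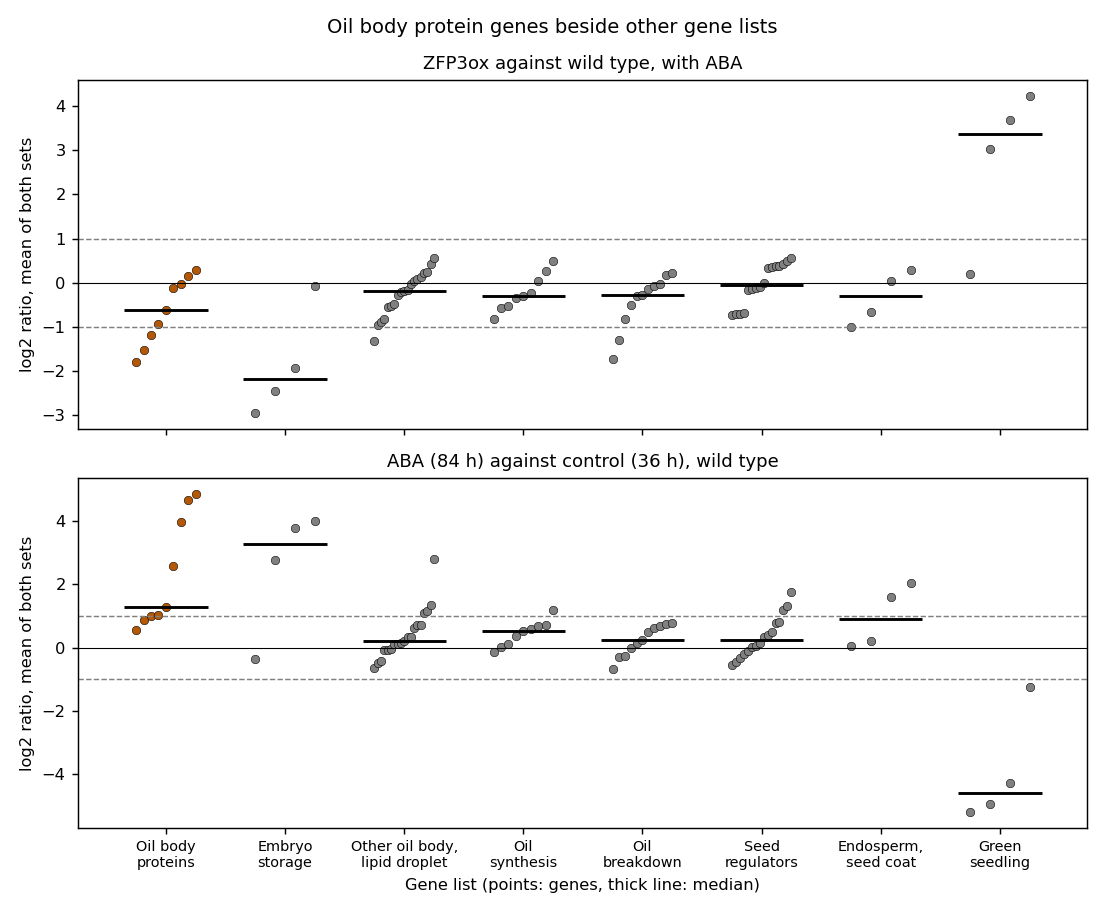
Log2 ratios (mean of both column sets) of the oil body protein genes beside 7 other gene lists, for ZFP3ox over wild type with ABA (upper) and ABA over control in wild type (lower); points are genes, thick lines medians and dashed lines the 2-fold rule. With ABA in the wild type the oil body median is 1.29 and the embryo storage median 3.28, and with ABA the ZFP3ox to wild-type medians are -0.62 and -2.19. The embryo storage gene SESA1 departs from its list, at -0.37 in the lower panel and -0.08 in the upper.

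The genes most like the mean of the 9 over the 8 columns were AT2G37910 (Pearson's r 0.99), EM1 (0.988), TSPO (0.987), PER1 (0.986) and AT4G36700 (0.985), among 214 candidates with a range of at least 2 on the log2 scale in both sets. EM1 is a late embryogenesis abundant protein and PER1 a seed peroxiredoxin. EM1 had 78.9 RPKM in ZFP3ox ABA, against 180.3 in wild-type ABA, and 9.99 in ZFP3ox control, against 5.71 in wild-type control. These correlations describe 4 samples, each with a pair of columns, and carry no test. Within the 9, AT3G01570 had the highest correlation with the mean of the others (0.971) and AT3G18570 the lowest (0.661).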

How the data were processed

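RNA from 4 samples of germinating seedlings was depleted of ribosomal RNA and sequenced as 50-base reads on a SOLiD 5500xl instrument, per the labels' protocols. Per the settings deposited by the authors, reads were matched by strand in colour space with at most 2 mismatches, reads matching up to 10 places were kept, and expression was in RPKM per gene. Which program, aligner and genome build made the values was not given in the sources used here. Column set 1 holds such RPKM values. Column set 2 was deposited as a scaled signal that is not per length: across 23749 genes the Pearson correlation of its log2 values with exon length was 0.549 to 0.607, against 0.136 to 0.184 in set 1. In set 2, 99.94% to 100.0% of values were whole multiples of the value of 1 read within 0.0055 scaled units. The planned test assumed RPKM in both sets; it was kept, and set 2 per exon length and a count test on its reads were added after seeing the data. Where the authors deposited tables of selected genes, their signed fold (a score) was copied as it stands.

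Features were matched to TAIR10.1 by locus code (23439), symbol and position (253) or symbol (194). AT4G26740 and AT5G50600 were matched by symbol and position, and the other measured members by locus code. Genes at 1 or more in both columns of at least 1 sample were kept. Values were log2(value + 1). Motifs were searched in the promoters of 8 measured genes; 1 further promoter is not reported here, for a reason unrelated to its motifs. Limma 3.58.1 and edgeR 4.0.16 in R 4.3.3 fitted an additive model with Benjamini-Hochberg adjustment over all genes kept and a threshold of 0.05. As the only residual is the departure from additivity, p-values measure no spread between samples of a group, and whether cultures were separate is not stated. Both tests were tried on simulated counts of 22646 genes with a known ABA effect: limma found 65 of 100 at 4-fold and 99 of 100 at 8-fold, with 13 false calls, and edgeR 64 and 99, with 9. The changed genes were drawn only from those with more reads. The counts were a single set with a fixed dispersion and no departure from additivity. These rates therefore need not hold for the averaged column sets or for genes with few reads. Named genes were every member, up to 4 members of each other list with the largest ratios, and the 5 genes most like the members' mean. Members and lists were chosen with earlier results of these data known.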

Additional observations from a re-analysis of the deposited data

Results flagged for a closer look

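For 2 genes the genotype comparison went in opposite directions with and without ABA in both column sets, and with 1 sample in each group this difference was not tested. The oleosin AT3G01570 was below wild type in ZFP3ox with ABA (-1.78) and above it without ABA (0.69), a difference of -2.46 on the log2 scale. The caleosin AT5G55240 was below wild type with ABA (-1.19) and above it without ABA (0.90), a difference of -2.09. In set 2 the ratio of AT5G55240 without ABA was 0.06, from 13 reads in ZFP3ox control and 18 in wild-type control before scaling. In set 1 it was 1.74, from 6.57 RPKM in ZFP3ox control and 1.27 in wild-type control. That last value was near the floor of set 1, with 0.3% of features below it.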

How the results depend on the processing

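Under other pseudocounts, another scaling and set 2 per exon length, 164 of 180 member ratios moved less than the spread between column sets, 16 moved further and 0 called ratios changed sign. That rule is lenient where the sets differ most, as for OLEO2 between genotypes with ABA (spread 2.1), so the count is no measure of stability. Single column sets cannot be judged by that spread. On set 1 alone, 6 genes were past 2-fold higher with ABA in ZFP3ox, 1 was higher in ZFP3ox with ABA and 3 without ABA. On set 2 alone, 1 gene was higher in ZFP3ox with ABA, 1 was past 4-fold lower in the difference of ABA ratios, and 1 passed limma for ABA. A pseudocount of 5 left 1 gene past 4-fold in that difference and 1 past limma's threshold, and a pseudocount of 0.1 put 1 gene past 2-fold higher in ZFP3ox without ABA. The ABA calls of OLEO1 (3.03), AT3G01570 (2.86) on set 2 alone, OLEO1 (2.53) and AT3G01570 (2.86) with pseudocount 5, OLEO2 (3.8) on set 1 alone and AT3G01570 (3.45) with set 2 per exon length kept their direction and were past no threshold. The edgeR count test on the reads of set 2 called OLEO1 and OLEO2 and not AT3G01570, with 50 genes higher and 52 lower over the whole table.

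Effects that passed no threshold and changed sign were the genotype effects of OLEO2 (-0.04), AT5G55240 (0.30) and AT5G50600 (0.08) on set 1 alone, of AT3G18570 (-0.65) and AT1G48990 (-0.21) on set 2 alone, and of AT3G18570 (-1.0) and AT1G48990 (-0.19) by edgeR, and the ABA effect of AT5G50600 (-0.02) by edgeR. With both steroleosin copies summed, its ratio of ZFP3ox to wild type with ABA was 0.19 (-0.12 for AT5G50600 alone), and its difference of ABA ratios 0.72 (-0.01 alone). The cause was not tested. Over all genes limma called 65 higher and 82 lower with ABA; median-of-ratios scaling, which moved the median effect to 0.02 from 0.20, called 147 and 514, set 2 alone 3 and 3, and pseudocount 5 called 2 and 0. Motif counts were the same in the 250 bases before the start alone. No paired analysis was made, because the column headers number the sets but what the sets are is stated nowhere in the sources used here. An alternative fit took every column as a library with the column set as a covariate. Whether the columns are separate libraries is not known. No sample could be left out, as each group has 1. In set 2, 4 genes (AT3G18570, AT1G48990, AT5G55240 and AT5G50600) had fewer than 50 reads in every sample, which limits what their ratios can show.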
